A study of Mus musculus with 8 samples.

Results

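The colony-stimulating factors are the secreted proteins that drive the growth and survival of myeloid cells, and their genes Csf1, Csf2 and Csf3 were chosen by gene symbol. All 3 were found among the 11415 genes of the deposited table. Transcripts were measured in bone marrow-derived macrophages, which are macrophages grown in culture from marrow precursors, here in conditioned medium that contained M-CSF, the protein product of Csf1. Every group came from IL10-/-RAG2-/- mice of strain 129S6/SvEvTac, which lack IL-10 of their own and, without RAG2, mature T and B cells. There were 4 groups: untreated cells, a group under LPS (bacterial lipopolysaccharide, 1 ng/mL) for 195 min, a group in which IL-10 at 1 ng/mL accompanied LPS over all 195 min (continuous IL-10), and a group that received IL-10 only for the final 30 of the 195 min under LPS (late IL-10, dose not restated in the labels). Each group had 2 libraries, 8 in all, from 2 independent macrophage pools per the labels. A mature transcript value (mRNA) and a value for unspliced transcripts (pre-mRNA) were given for every gene.

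M-CSF, the product of Csf1, keeps macrophages alive through the receptor kinase CSF1R. GM-CSF, from Csf2, acts through CSF2RA and the common beta chain CSF2RB and pushes macrophages and granulocytes toward an inflammatory state. G-CSF, from Csf3, acts through CSF3R and drives the production and release of neutrophils. LPS activates Toll-like receptor 4 and, through it, NF-kB and MAP kinase signalling, and macrophages are a known source of all these factors under LPS. IL-10 signals through STAT3 and restrains inflammatory genes. The mRNAs of many inflammatory cytokines hold AUUUA repeats in their 3′ untranslated region (3′ UTR), which the decay factor ZFP36 (tristetraprolin) and its relatives bind.

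The genes lie at 3 places in the mouse genome (GRCm38, the build the submitters name as mm10, with GENCODE annotation). Csf1 (ENSMUSG00000014599.10) is at chr3:107741048-107760469 on the minus strand with 4720 exon bases over 4 protein-coding transcripts. Csf2 (ENSMUSG00000018916.5) is at chr11:54247271-54249667 on the minus strand with 800 exon bases. Csf3 (ENSMUSG00000038067.2) is at chr11:98701263-98703629 on the plus strand with 1413 exon bases. Csf2 is overlapped by 1 annotated antisense gene, Gm12223, and how the authors assigned reads in the overlap is not given in the sources used here.

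The 3′ UTRs differed in how densely they held the AUUUA repeat, written ATTTA as DNA, so the 30 bases of each that hold the most copies are shown, with every copy in capitals. They lie at chr3:107741109-107741138 for Csf1, chr11:54247329-54247358 for Csf2 and chr11:98702984-98703013 for Csf3.
Csf1: tttatataaggtcATTTAaatatctATTTA
Csf2: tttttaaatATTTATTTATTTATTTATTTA
Csf3: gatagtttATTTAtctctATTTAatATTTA
The Csf2 stretch holds 5 overlapping copies, the Csf3 stretch 3 and the Csf1 stretch 2. Among 20787 3′ UTRs searched, 0.274% held a 30-base stretch as dense as that of Csf2, 2.57% one as dense as that of Csf3 and 18.8% one as dense as that of Csf1. Over the whole 3′ UTR there were 4 ATTTA copies in 2111 bases for Csf1, 9 in 317 bases for Csf2 and 6 in 669 bases for Csf3. Of 3′ UTRs between 0.8 and 1.25 times as long, 50.0% held as many copies as Csf1, 0.0528% as many as Csf2 and 1.88% as many as Csf3. The longer element TATTTAT, which overlaps ATTTA, occurred 1, 9 and 2 times, and 27.7% of all 3′ UTRs held it at least once. These matches describe the letters and were not tied to the stability of any transcript.

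For Csf1 the 250 bases before the start site (RefSeq, GRCm38.p6, chr3:107760470-107760719, minus strand) are shown. Of the windows searched for Csf1 and Csf2, only this one held motif matches, and the matching stretches are in capitals. The pattern they match, called kB-type, is a loose form of the NF-kB motif in which several positions may be any base. Whether any of these stretches is an NF-kB site was not tested.
Csf1 promoter: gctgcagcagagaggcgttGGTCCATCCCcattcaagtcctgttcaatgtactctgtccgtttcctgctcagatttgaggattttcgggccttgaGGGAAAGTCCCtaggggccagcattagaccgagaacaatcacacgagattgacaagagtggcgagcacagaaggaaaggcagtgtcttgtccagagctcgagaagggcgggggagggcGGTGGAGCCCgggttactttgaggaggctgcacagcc
Both strands were searched, and the 4 kB-type matches begin 231, 155, 154 and 37 bases before the start site, the middle pair overlapping on opposite strands. Of 32851 promoters of the same length, 45.8% held at least 1 kB-type match. None of the other 4 motifs searched was in this Csf1 window: AP-1 (TGANTCA, in 6.75% of promoters), a STAT site (TTCNNNGAA, 7.02%), a Runx site (TGTGGT, 14.0%) and the CK-1 core (GAGATTCC, 0.755%), an element known from cytokine promoters. The RefSeq window of Csf2 (chr11:54249900-54250149, minus strand) held 0 matches to all 5 motifs, although Csf2 pre-mRNA also rose with LPS. That window does not adjoin the annotated GENCODE start of Csf2, and nothing about a factor follows from it.

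The deposited values were group means, from which the reads of both libraries were worked out exactly, as the account of the processing describes. The libraries of a group are called A and B by their scaling and separately for each measure, so A of one group need not share a pool with A of another. Reads over the table ran from 21412968 to 53172133 per library for mRNA and from 8661271 to 31508394 for pre-mRNA. Only genes with at least 11 reads in both LPS mRNA libraries are in the table, so Csf2 and Csf3, at or near 0 in untreated cells, are there through their LPS values, and the table favours genes that LPS raises. The cells carried macrophage transcripts: all 10 macrophage markers were in the table, with Csf1r between 83290 and 129500 normalized mRNA reads and Adgre1 (F4/80) between 28470 and 63080 over the 8 libraries. In bulk samples, a change in the number of cells that make a transcript and a change per cell cannot be told apart.

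The libraries of each LPS-treated group differed from each other in interferon-stimulated genes, and in mRNA the gaps of Csf1, Csf2 and Csf3 ran the same way. All 25 of 25 such genes, listed after the values were seen, were higher in the same one of the pair, with a median mRNA gap on the log2 scale of 1.31 in favour of LPS library B, 1.4 in favour of continuous IL-10 library A and 1.29 in favour of late IL-10 library A. Over all genes the median gap was between 0 and 0.0194. The Csf1 mRNA gap was 1.27, 0.771 and 1.29 in those groups, in the same direction. For Csf2 mRNA it was 1.15, 0.36 and 1.77, also in the same direction, and for Csf3 0.396, 0.712 and 0.261. In pre-mRNA library A was the higher in all 3 LPS-treated groups, with interferon gene medians of 0.959, 1.31 and 0.976 and Csf1 gaps of 1.11, 0.453 and 1.29. Csf2 pre-mRNA gaps were 0.592, -1.66 and 1.45, opposite with continuous IL-10, where it held 0 and 2 reads, and Csf3 gaps were 0.445, 1.96 and -0.857, opposite with late IL-10. Csf2ra ran opposite in all 3 LPS-treated groups in both measures, with mRNA gaps of -0.805, -1.23 and -0.998. The part of this difference in the results below was not tested. Each library was therefore left out in turn, and the calls that this ended are named beside their values. The lone library left in its group is then assumed to vary like the other groups. Calls with LPS of the neutrophil markers Camp, Ltf, S100a9, Ngp, Mpo (mRNA) and Mmp8 (pre-mRNA), and of Gab1 and Fos mRNA, were not refitted.

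Csf1 mRNA was high in cells given LPS, with or without late IL-10, and much lower in cells given continuous IL-10. In normalized reads, untreated libraries A and B held 226.2 and 207.3, LPS libraries 9921 and 23870, continuous IL-10 libraries 2654 and 1555, and late IL-10 libraries 22020 and 9030. The lowest LPS-treated library, at 1555, stood above both untreated ones, and the LPS and late IL-10 libraries overlapped. By the group means, Csf1 mRNA was 78.0-fold higher with LPS than untreated and 8.03-fold lower with continuous IL-10 than with LPS alone. The order of the means was LPS (16900), late IL-10 (15520), continuous IL-10 (2104) and untreated (216.8), in which the first pair did not differ beyond the spread of their libraries.

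Csf1 pre-mRNA followed the same order. Untreated libraries held 23.44 and 56.83 normalized reads, LPS libraries 7304 and 3386, continuous IL-10 libraries 390.1 and 284.8, and late IL-10 libraries 4103 and 1683. Again LPS and late IL-10 overlapped and every other pair of groups was separate. The means were 133-fold higher with LPS than untreated and 15.8-fold lower with continuous IL-10 than with LPS.

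Csf2 transcripts were nearly absent without LPS and with continuous IL-10. Untreated mRNA libraries held 0 and 1 read, or 0 and 1.241 normalized reads. LPS libraries held 600.7 and 1335 normalized mRNA reads, continuous IL-10 libraries 9.83 and 7.438 (11 and 7 reads), and late IL-10 libraries 551.7 and 160.8. No 2 groups overlapped, although the lower LPS library and the higher late IL-10 library were close. From the reads, the ratio of LPS to untreated mRNA was 2110, with a 95% exact binomial interval of 379 to 83500, and that of LPS to continuous IL-10 was 104 (65.8 to 177). These intervals cover counting error only.

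Csf2 pre-mRNA separated late IL-10 from LPS by more than the mRNA did, on the group means. LPS libraries held 388.9 and 257.8 normalized reads and late IL-10 libraries 66.23 and 23.56, a ratio of means of 7.20, while the mRNA means differed 2.72-fold. Untreated libraries held 0 and 2.914 and continuous IL-10 libraries 0 and 2.157, which is 0 and 2 reads in either group. The ratio of LPS to continuous IL-10 was 374 (103 to 3100 by counting error), and that of late IL-10 to continuous IL-10 was 54.2 (14.6 to 454).

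Csf3 stood at low levels throughout and had another order. Untreated mRNA libraries held 2.646 and 0 normalized reads (4 and 0 reads), LPS libraries 39.15 and 51.83, continuous IL-10 libraries 159.1 and 96.7, and late IL-10 libraries 103.3 and 86.1. Both groups with IL-10 lay above both LPS libraries, and they overlapped each other. With 2 libraries per group, groups often separate in this way without a difference, here and wherever separate libraries are named. The share of all genes that did so was not worked out. The means were 2.81-fold higher with continuous IL-10 and 2.08-fold higher with late IL-10 than with LPS alone, neither past the test given below. From the reads, LPS was 25.8 times untreated (9.67 to 97.1 by counting error). Csf3 pre-mRNA was listed at 0 in both untreated libraries and held 3 to 21 reads in each LPS-treated one, with 5.875 and 4.049 normalized reads with LPS, 15.49 and 3.236 with continuous IL-10 and 2.649 and 5.611 with late IL-10. Against a floor of 3 reads over the untreated group, the 8 reads with LPS stood 4.29-fold higher. This value leaves out the counting error of those 8 reads, and the change did not pass the test given below.

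**Figure D1:**
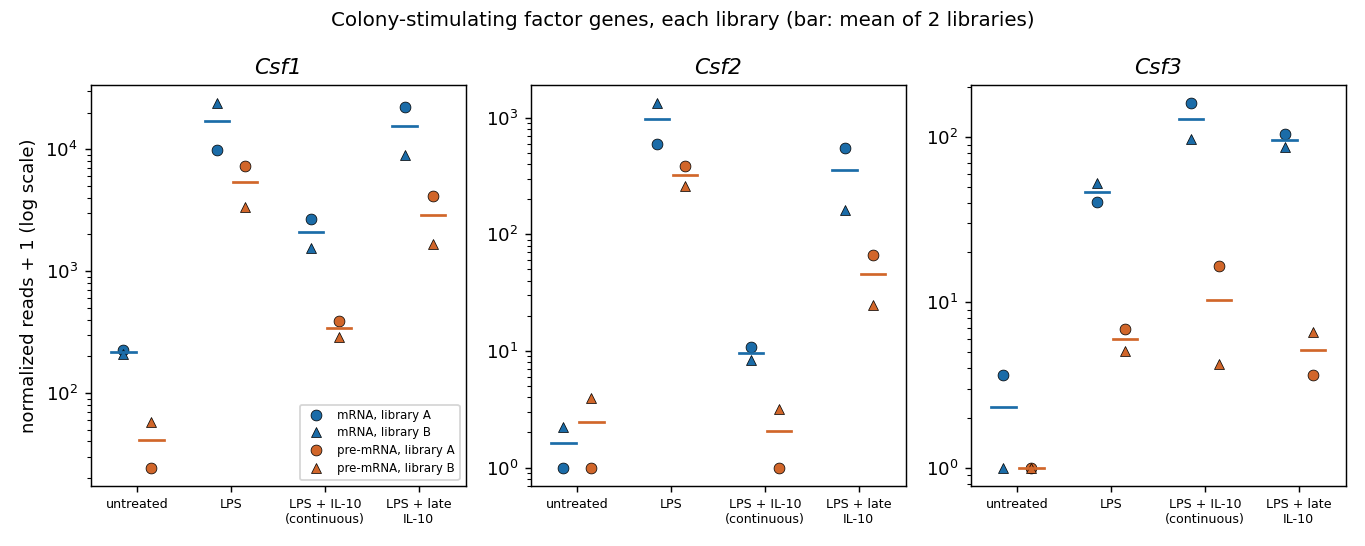
Normalized reads + 1 on a log axis for Csf1, Csf2 and Csf3 in the 4 groups, with mRNA and pre-mRNA in separate colours, circles for library A, triangles for library B and bars for the mean of the pair. Csf1 and Csf2 are low with continuous IL-10 and high with LPS and late IL-10, while both Csf3 mRNA values of either IL-10 group lie above those with LPS alone. Neither Csf3 difference from LPS was called.

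Set on 1 scale by dividing by exon length, LPS mRNA means were 3580 normalized reads per kb of exon for Csf1, 1210 for Csf2 and 32.19 for Csf3. With continuous IL-10 the levels per kb were 445.8, 10.79 and 90.5. Csf2 thus passed from a level above that of Csf3 with LPS alone to one below it with continuous IL-10. With late IL-10 the levels per kb were 3289, 445.3 and 67.03, and untreated they were 45.92, 0.7758 and 0.9363.

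LPS raised the mRNA of all 3 colony-stimulating factors, in a comparison where 35.7% of all genes passed the test in either direction. The test was limma-trend on log2(normalized reads + 1), with a Benjamini-Hochberg adjusted p under 0.05 over all genes, and errors are standard errors with n = 2 libraries per group. Csf2 rose by 9.23 ± 0.73 on the log2 scale (adjusted p = 0.00027), Csf1 by 6.14 ± 0.55 (0.00043) and Csf3 by 4.59 ± 0.66 (0.0028). In pre-mRNA, Csf2 rose by 7.33 ± 0.92 (adjusted p = 0.00078) and Csf1 by 7.05 ± 0.58 (0.00014), while Csf3, at 2.56 ± 0.98, did not pass (0.067), with 44% of genes called. These 5 calls held without each of the 4 libraries compared. Csf2 and Csf3 are in the table through their LPS reads, so a rise from near 0 was favoured in advance by that selection. For these genes the calls are therefore not independent support for a rise. Scaling the libraries to total reads instead moved the median of all genes by -0.75 in mRNA and -0.91 in pre-mRNA in this comparison, and by 0.26 and 0.46 in continuous IL-10 against LPS, and it turned the direction of no called change of Csf1, Csf2 or Csf3.

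With continuous IL-10, Csf1 and Csf2 were lower than with LPS alone in both measures, and Csf3 was not called. In mRNA, where 2.24% of genes passed, Csf2 fell by 6.55 ± 0.73 on the log2 scale (adjusted p = 0.0091) and Csf1 by 2.92 ± 0.55 (0.0497). Csf3 changed by 1.44 ± 0.66, higher in both libraries (0.39). In pre-mRNA, where 6.7% passed, Csf2 fell by 7.48 ± 0.92 (0.0069) and Csf1 by 3.90 ± 0.58 (0.013), and Csf3 stood at 0.50 ± 0.98 (0.81) with overlapping libraries. The Csf1 mRNA call lies at the threshold: it was lost without any 1 of the 4 libraries, with adjusted p from 0.0612 to 0.244 and the log2 change from -3.55 to -2.29. Its pre-mRNA call was lost without LPS library A or either continuous IL-10 library (highest 0.0944), and the Csf2 mRNA call without LPS library B or either continuous IL-10 library (highest 0.0727). The Csf2 pre-mRNA call held without each library. The adjusted p was 0.051 for Csf1 mRNA with a pseudocount of 0.5, for Csf1 pre-mRNA with no filter on low genes and for Csf2 mRNA with voom.

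Late IL-10 gave no called change from LPS in any of the 3 genes. For mRNA 0% of all genes passed, with 92 higher and 15 lower at an unadjusted limma p under 0.05, and a voom fit of the recovered reads also called 0. Those unadjusted counts are fewer than such a threshold passes by chance alone. A lack of calls in this comparison therefore does not show a lack of change. Scaling to total reads called 3 genes. Csf1 mRNA differed by -0.13 ± 0.55, Csf2 by -1.58 ± 0.73 and Csf3 by 1.05 ± 0.66, each with an adjusted p of 1.0. Pre-mRNA values were -0.92 ± 0.58 for Csf1, -2.97 ± 0.92 for Csf2 and -0.26 ± 0.98 for Csf3 (adjusted p = 1.0, 0.32 and 1.0), where 1.04% of genes passed. The largest of these, Csf2 pre-mRNA, was lower in both late IL-10 libraries than in both LPS libraries. Pairs of libraries often separate in this way without a difference.

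The 2 schedules of IL-10 were also compared directly. Csf2 mRNA was lower with the continuous one, at a log2 difference of -4.97 ± 0.73 (adjusted p = 0.035, 1.09% of genes called), while Csf1 mRNA at -2.79 ± 0.55 (0.078) and Csf3 mRNA at 0.39 ± 0.66 (0.89) did not pass. In pre-mRNA Csf2 differed by -4.52 ± 0.92 (0.049) and Csf1 by -2.98 ± 0.58 (0.045), with 2.96% of genes called, and Csf3 by 0.77 ± 0.98 (0.72). Each of these 3 calls was lost without any 1 of the 4 libraries, with adjusted p up to 0.205, 0.31 for Csf1 and 0.334 for Csf2 pre-mRNA. They were also lost under 1 or more of the other settings, with voom for Csf2 mRNA (0.13) and with no filter on low genes for Csf1 (0.11) and Csf2 (0.094) pre-mRNA.

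Against untreated cells, some of the LPS response of Csf1 remained under continuous IL-10. Csf1 was higher by 3.22 ± 0.55 in mRNA (adjusted p = 0.0069, 25.8% of genes called) and by 3.15 ± 0.58 in pre-mRNA (0.0064, 28.8% called). The mRNA call held without each library, and the pre-mRNA call was lost without continuous IL-10 library A (0.0514). Csf2 mRNA was higher by 2.67 ± 0.73 (0.038), a call that rests on 18 reads against 1, with a ratio of 20.2 (3.2 to 844 by counting error), and that was lost without any 1 library (up to 0.16), with voom (0.22) and with a pseudocount of 5 (0.18). Csf2 pre-mRNA stood at -0.16 ± 0.92 (0.92), with 2 reads in each group. Csf3 mRNA was higher by 6.03 ± 0.66 (0.0012), a call that held without each library, and Csf3 pre-mRNA by 3.06 ± 0.98 did not pass (0.051). With late IL-10, all 3 mRNAs were above untreated (36.1% of genes called), Csf2 by 7.64 ± 0.73 (0.00055), Csf1 by 6.02 ± 0.55 (0.00046) and Csf3 by 5.64 ± 0.66 (0.0012), and these calls held. In pre-mRNA (43.5% called), Csf1 was higher by 6.13 ± 0.58 (0.00024) and Csf2 by 4.36 ± 0.92 (0.0075), and Csf3 stood at 2.30 ± 0.98 (0.093). The Csf2 pre-mRNA call was lost without late IL-10 library A (0.0539). These comparisons share their untreated or LPS libraries and are not independent of each other.

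**Figure D2:**
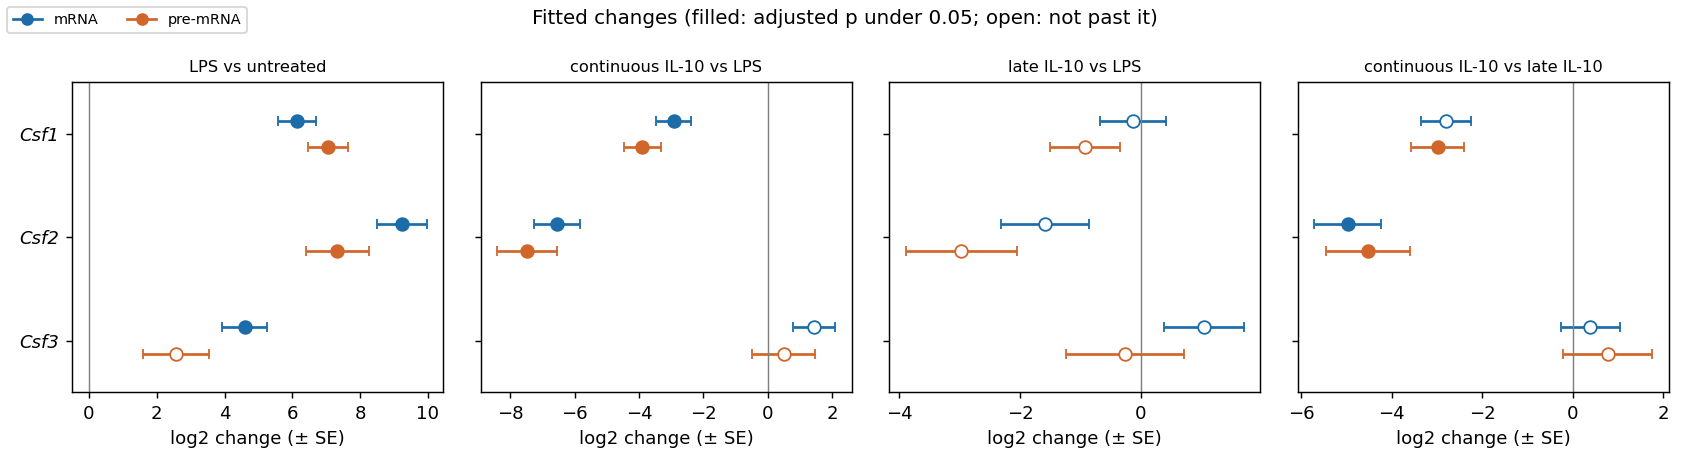
Fitted log2 changes with standard errors for the 3 genes in 4 comparisons, mRNA and pre-mRNA in separate colours, filled where the adjusted p is under 0.05. Csf1 and Csf2 lie left of 0 for continuous IL-10 against LPS (Csf2 mRNA at -6.55, Csf1 mRNA at -2.92), and no point is filled for late IL-10 against LPS.

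No difference between the pre-mRNA and the mRNA change was called for any of the 3 genes, in a joint fit that assumes independent measures, which RNA shared by both does not give. For LPS against untreated the pre-mRNA change minus the mRNA change was 0.90 ± 0.88 for Csf1, -1.90 ± 1.25 for Csf2 and -2.03 ± 1.12 for Csf3 (adjusted p = 0.88, 0.72 and 0.60), where 1.24% of genes passed. For continuous IL-10 against LPS it was -0.97, -0.93 and -0.94 (0.0629% passed), and for late IL-10 against LPS -0.79, -1.38 and -1.31 (0.135% passed), with adjusted p of 1.0 each. The standard errors of near 1 leave room for differences of several-fold in either direction.

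The receptors were described from a list of 17 growth factors and receptors, of which 10 were in the table. Csf1r, the receptor of M-CSF and IL-34, had mRNA levels from 83290 to 129500 normalized reads over the 8 libraries, with a change of -0.29 ± 0.26 with LPS (adjusted p = 0.43) and -0.11 with continuous IL-10 against LPS (0.93). Scaled to total reads, the LPS change of Csf1r was -1.04 in mRNA (0.024) and -1.70 in pre-mRNA (0.0056), and the continuous IL-10 value turned to 0.15 (0.82). Its pre-mRNA varied more, at 12140 and 12360 untreated, 6383 and 7922 with LPS, 11720 and 14530 with continuous IL-10 and 2680 and 3664 with late IL-10. The late IL-10 libraries were the lowest of all, and the log2 change of Csf1r pre-mRNA from untreated to late IL-10 was -1.97 ± 0.29 (0.0015), a call that held without each library. Against late IL-10 it was higher with continuous IL-10 by 2.06 (0.026), a call lost without any 1 of the 4 libraries (0.0627 to 0.227) and with no filter on low genes (0.056). Il34, the second ligand of that receptor, rose by 4.43 ± 0.59 in mRNA with LPS (0.002), from 0 and 1.241 normalized reads to 26.79 and 36.42. With continuous IL-10 it held 137.6 and 87.13, both above the LPS libraries, a change that was not called (1.78 ± 0.59, adjusted p = 0.22).

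Csf3r, the receptor of G-CSF, was higher with continuous IL-10 than with LPS. Its mRNA libraries held 2588 and 2973 normalized reads untreated, 2758 and 3985 with LPS, 10970 and 10040 with continuous IL-10 and 5373 and 3534 with late IL-10. The continuous IL-10 libraries lay above all others. Csf3r rose by 1.66 ± 0.27 in mRNA (adjusted p = 0.033) and by 1.35 ± 0.29 in pre-mRNA (0.037) against LPS, and both calls were lost without any 1 of the 4 libraries (up to 0.166 and 0.171), the second also with no filter on low genes (0.062). Neutrophils also carry Csf3r, and the other 7 neutrophil markers in the table summed to 1893 and 2607 untreated, 2488 and 3000 with LPS, 2707 and 2138 with continuous IL-10 and 3244 and 2465 with late IL-10. Mmp8, a collagenase of neutrophil granules, was the highest of the 7 in every library. Its pre-mRNA was higher with continuous IL-10 than with LPS (3.45 ± 0.47, adjusted p = 0.0094), a call lost without library B of continuous IL-10 (0.0927). Mmp8 pre-mRNA was lower with LPS than untreated (-3.17 ± 0.47, adjusted p = 0.0017), with means of 109.9 untreated, 11.69 with LPS and 135.4 with continuous IL-10. Of the 8 neutrophil markers, Camp, Ltf, S100a9, Ngp and Mpo were called higher in mRNA with LPS than untreated, where 35.7% of all genes were called. Their untreated means were 6.202 to 59.29 normalized reads. S100a8, Mmp8 and Csf3r mRNA were not called there. The part of these markers in the Csf3r result was not tested.

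Of the GM-CSF receptor chains, Csf2rb rose with LPS by 0.87 ± 0.20 in mRNA (adjusted p = 0.016) and by 1.25 ± 0.31 in pre-mRNA (0.013). Those calls were lost when libraries were scaled to total reads, at 0.12 (0.60) and 0.33 (0.35). The mRNA call was also lost without either LPS library or untreated library B (up to 0.105), and the pre-mRNA call without library A of either group (up to 0.0868). Its mRNA held 20570 and 18500 normalized reads untreated and 34240 and 37290 with LPS, and continuous IL-10 changed it by 0.21 (0.76). Csf2ra, the chain specific to GM-CSF, gave no call, and its 2 libraries differed 1.75 to 2.70-fold in mRNA within every group, so a change of that order could not be detected.

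**Figure D3:**
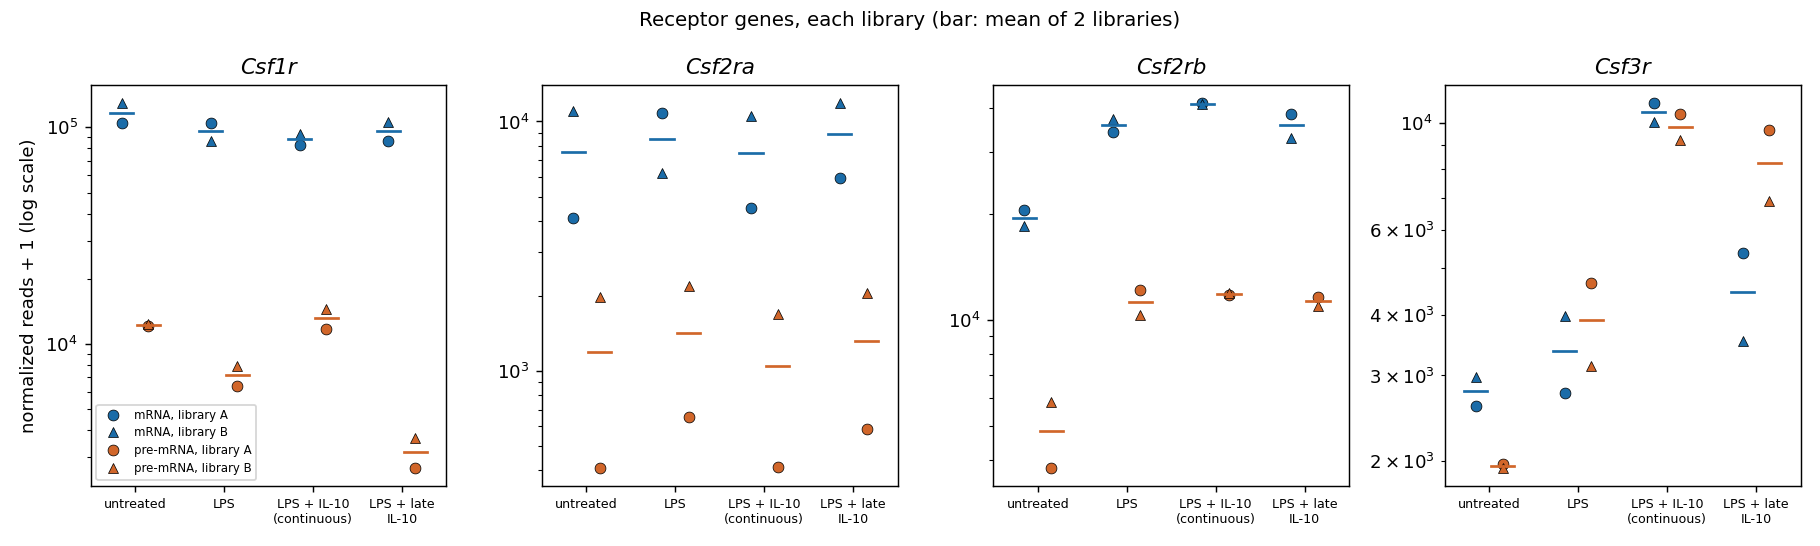
Normalized reads + 1 on a log axis for receptor genes of the colony-stimulating factors in the 4 groups, with circles for library A, triangles for library B, bars for the mean of the pair and mRNA and pre-mRNA in separate colours. Csf1r mRNA stays between 83290 and 129500 while its pre-mRNA is lowest with late IL-10, and Csf3r is highest with continuous IL-10.

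Genes of the pathways around these factors were taken from 5 lists of 104 genes. They were chosen with earlier results of these data known and are described by counts and medians. Of 31 genes of the signalling downstream of the receptors, 14 were higher and 3 lower in mRNA with LPS, where 35.7% of all genes were called (2193 higher and 1887 lower), and their median change was 0.56 against 0.01 over all genes. Scaling to total reads turned that split to 9 higher and 8 lower. The highest were the feedback inhibitors Cish (9.58 ± 0.55, adjusted p = 9e-05), Socs3 (8.76 ± 0.28, 1.2e-05) and Socs1 (7.97 ± 0.34, 2.5e-05). The adaptor Gab1 was among those lower with LPS than untreated (-2.15 ± 0.27, 0.0017). With continuous IL-10 against LPS, Gab1 (2.56 ± 0.27, 0.0074) and Stat3 (1.74 ± 0.22, 0.013), the transcription factor of the IL-10 receptor, were higher and Socs1 lower (-2.04 ± 0.34, 0.035). The Stat3 and Socs1 calls were lost without any 1 of the 4 libraries, and the Gab1 call without LPS library B or either continuous IL-10 library. Over the 4 fits the log2 change ran from 1.55 to 1.92 for Stat3, from -2.14 to -1.93 for Socs1 and from 2.45 to 2.66 for Gab1. Most calls of this comparison over all genes were lost in the same way. In pre-mRNA, LPS had lowered Inpp5d (SHIP1, a lipid phosphatase) by 3.43 ± 0.28 on the log2 scale (0.00014). With continuous IL-10 against LPS, Inpp5d pre-mRNA was higher by 2.26 ± 0.28 (0.0073) and Cish (-3.63 ± 0.54, 0.013) and Tyk2 (-1.41 ± 0.22, 0.016), a kinase of cytokine receptors, lower. The Inpp5d call was lost without continuous IL-10 library B (0.0553), that of Cish without that library or LPS library A (up to 0.0685) and with no filter on low genes (0.051), and that of Tyk2 without LPS library A or either continuous IL-10 library (up to 0.118).

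Of 23 transcription factors known to act on these genes, 9 were higher and 1 lower in mRNA with LPS (8 and 5 when scaled to total reads), with a median of 0.76. That count is near the 35.7% called over all genes and is no result about the list. They included the NF-kB subunits Nfkb1 (3.92 ± 0.24, adjusted p = 0.00011), Nfkb2 (3.88 ± 0.29, 0.00023) and Relb (2.78 ± 0.21, 0.00023). The 1 lower with LPS was Fos, an AP-1 subunit (-2.46 ± 0.42, 0.0055). With continuous IL-10 against LPS, only Fos passed in mRNA (2.56 ± 0.42, 0.034), a rise from that lowered level. Nfatc1 was lower in pre-mRNA (-1.28 ± 0.30, 0.047). The Fos call was lost without any 1 library (up to 0.185). That of Nfatc1 was lost without LPS library A or either continuous IL-10 library (up to 0.219), with no filter on low genes (0.084) and when scaled to total reads (0.067).

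Of 27 genes that act on AU-rich mRNAs or on the kinase pathway that controls them, 6 were higher and 4 lower in mRNA with LPS (5 and 8 when scaled to total reads), with a median of 0.55, again near the 35.7% called over all genes. The endonuclease gene Zc3h12a (3.36 ± 0.22, 0.00015), the p38 target kinase gene Mapkapk2 (3.19 ± 0.28, 0.00039) and Zfp36 (1.89 ± 0.20, 0.00082) were among the higher. With continuous IL-10 the phosphatase gene Dusp1, which switches off p38, was the only one called, higher by 2.85 ± 0.39 in mRNA (0.016) and by 2.58 ± 0.41 in pre-mRNA (0.016). The mRNA call was lost without LPS library B or either continuous IL-10 library (up to 0.113), and the pre-mRNA call without LPS library A or either continuous IL-10 library (up to 0.0848) or with no filter on low genes (0.052). Dusp1 pre-mRNA was also higher with late IL-10 than with LPS alone (4.37, 0.004), as was that of Stat3 (2.12, 0.028). The Dusp1 call held without each library, and that of Stat3 was lost without LPS library B or either late IL-10 library (up to 0.195) and with no filter on low genes (0.076). Of 4 genes of the protease that sheds membrane-bound M-CSF and its partners, 3 rose in mRNA with LPS, where 35.7% of all genes were called. They were Rhbdf2 by 3.15 ± 0.20 (0.00013), Rhbdf1 by 2.62 ± 0.31 (0.0013) and the protease gene Adam17 by 1.56 ± 0.23 (0.0032). Scaled to total reads, 3 were higher and 1 lower. None was called in mRNA with continuous IL-10 against LPS, where only 2.24% of all genes were called. With 4 genes, neither count is a result about the list.

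The genes with the most similar mRNA pattern were found by the root mean square distance over the 8 libraries, on centred log2 values of 11124 genes with a mean of at least 5. For Csf1 they were Dll1 (distance 0.261), Irf7 (0.288), Tnfsf10 (0.342), Tmprss2 (0.356) and Atp10a (0.356). For Csf2 they were Il23a (0.774), Ifit3b (0.789), Il12a (0.873), Ccl2 (1.053) and Ifit3 (1.088). For Csf3 they included Nt5c1a (0.509), Cfb (0.549), Flrt3 (0.619) and Il1f9 (0.621). Irf7, Tnfsf10 and the Ifit genes are known interferon-stimulated genes, Il23a and Il12a encode subunits of IL-23 and IL-12, Cfb encodes complement factor B and Il1f9 a cytokine of the IL-1 family. Il23a had mRNA means of 0.6206 untreated, 417.3 with LPS, 10.14 with continuous IL-10 and 169.5 with late IL-10. Il1f9 had means of 0.9514, 41.84, 93.3 and 76.34 in that order. Csf1 and Csf2 lay 1.469 apart, Csf1 and Csf3 1.693, and Csf2 and Csf3 3.046. Each had closer genes outside the family, which is likely for any gene when 11124 are compared and is no result about the family.

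**Figure D4:**
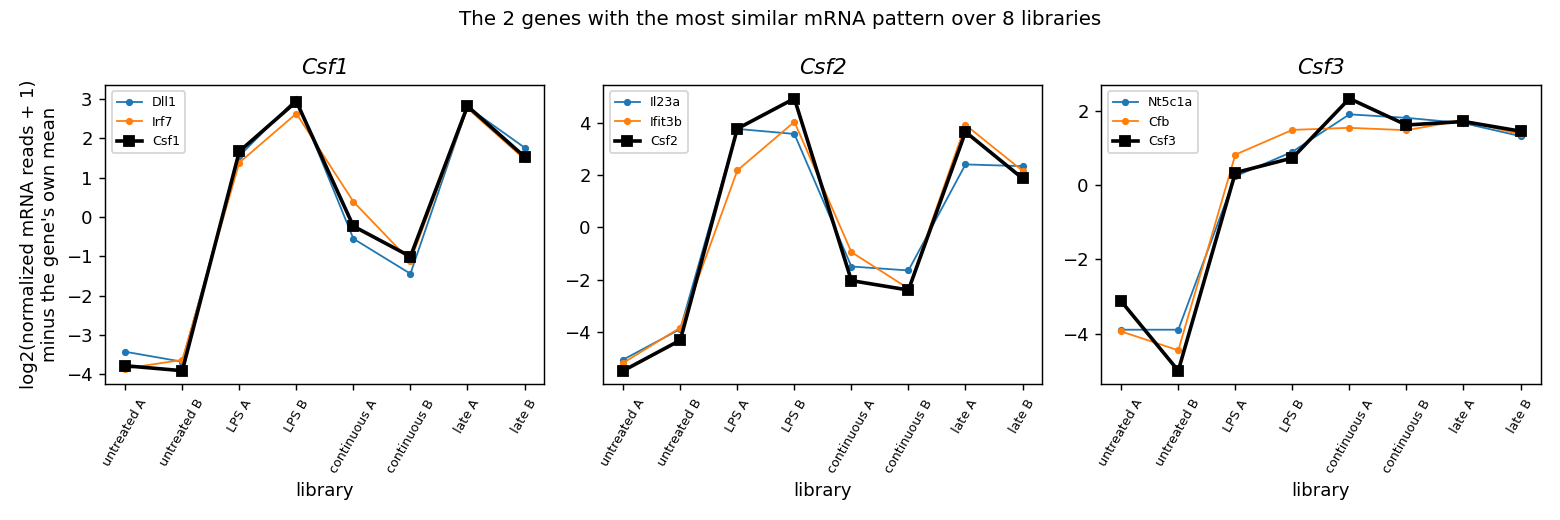
Centred log2(normalized mRNA reads + 1) in the 8 libraries for Csf1, Csf2 and Csf3 (black) and the 2 genes nearest to each (colours). The lines of Csf1 and Csf2 drop with continuous IL-10. That of Csf3 is highest in continuous IL-10 library A, while its continuous and late IL-10 libraries overlap.

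Other cell types that can make these factors were looked for by their markers. The table held 0 of 4 B cell and 0 of 4 mast cell markers, 3 of 7 T cell markers, 2 of 7 stromal and 2 of 4 endothelial ones. The summed stromal markers, nearly all Pdgfrb, were 122.4 and 249.5 normalized reads untreated, 2637 and 2418 with LPS, 687.2 and 600.4 with continuous IL-10 and 2386 and 2339 with late IL-10. The summed dendritic cell markers (5 of 8 in the table), mostly the single gene Itgax, were 1363 and 2911, 9528 and 17950, 4661 and 3057, and 16010 and 8944. The means of both sums had the order of Csf1 and Csf2, LPS first, then late IL-10, continuous IL-10 and untreated, and their part in those results was not tested. The endothelial sum was 1224 and 2175 untreated, 1107 and 1941 under LPS, 650.5 and 840.5 for continuous and 1884 and 1320 for late IL-10, lowest in both continuous libraries. The T cell sum was highest untreated, at 3341 and 5608, and between 409.1 and 956.7 in the LPS-treated libraries. In untreated cells it was almost all Cd28, which fell with LPS by 3.11 ± 0.39 on the log2 scale (adjusted p = 0.0016), while Lck, on the same list, was higher with LPS (3.16 ± 0.73, 0.016). The Lck call was lost without LPS library B or either untreated library (up to 0.0892) and with voom (0.095).

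Within 100 kb, Csf1 had Ahcyl1 in the table, Csf2 had 0 genes, and Csf3 had Psmd3, Med24, Thra, Nr1d1 and Msl1. None of these 6 genes was called in either IL-10 group against LPS, where few of all genes were called either (2.24% in mRNA and 6.7% in pre-mRNA with continuous IL-10, 0% and 1.04% with late IL-10). With LPS, Psmd3, a proteasome subunit gene beside Csf3, was higher in pre-mRNA by 0.66 ± 0.23 (adjusted p = 0.046), a call lost without any 1 of the 4 libraries (up to 0.155) and turned to -0.25 (0.59) when scaled to total reads. The nuclear receptor gene Thra fell by 1.27 ± 0.31 on the log2 scale in mRNA (adjusted p = 0.019) and by 3.22 ± 0.36 in pre-mRNA (0.00048) with LPS. The Thra mRNA call was lost without library B of either group (up to 0.114), and the pre-mRNA call held.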

How the data were processed

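Directional, ribosome-depleted libraries of total RNA were sequenced from macrophages in 4 groups of 2. The authors deposited a signal per gene, group and measure. Trim Galore, DESeq and mm10 were used, per the submitters' processing notes, with no version, aligner, counter, annotation or rule for pre-mRNA reads given in the sources used here. Each deposited signal is the mean of 2 libraries' reads divided by a size factor. Solving for whole reads gave both libraries for 100% of values (largest relative error 5.4e-15). The deposited columns hold no counts, and the main fit was made on normalized values, with a voom fit of the recovered reads beside it. Values were fitted as log2(normalized reads + 1) with limma-trend 3.58.1 in R 4.3.3, 8 libraries per measure, with a single group term, after dropping genes with a mean below 1 (11415 left for mRNA, 11131 for pre-mRNA), with Benjamini-Hochberg adjustment over all genes. The log scale understates changes of low genes. Nothing says that the 2 pools capture the biological spread, so p-values measure the spread between these libraries. Few-read ratios have exact binomial intervals (scipy 1.17.1). Both the recovery and the fit were tested on simulated data. The members and gene lists were chosen with earlier results of these data known. Named genes were the members, their receptors, the 5 nearest patterns (1 for Csf3 is not reported here), neighbours within 100 kb and up to 3 listed genes with the smallest adjusted p per comparison. Other pseudocounts, filters, scalings, a voom fit and leaving out each library were tried.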

Additional observations from a re-analysis of the deposited data

Results flagged for a closer look

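The effect of IL-10 against LPS differed between the 2 schedules, in a direct test, for 3 of the 6 values of the colony-stimulating factors, where 1.09% of all genes were called in mRNA and 2.96% in pre-mRNA. Continuous minus late IL-10, on the log2 scale, was -4.97 for Csf2 mRNA (limma adjusted p = 0.035), -2.98 for Csf1 pre-mRNA (0.045) and -4.52 for Csf2 pre-mRNA (0.049). In each case both continuous IL-10 libraries lay below both late IL-10 libraries, and each call was lost without any 1 of the 4 libraries compared. Each was also lost under another setting, Csf2 mRNA with voom (0.13) and the pre-mRNA values with no filter on low genes (0.11 for Csf1, 0.094 for Csf2).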

How the results depend on the processing

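No paired analysis was possible because the deposited columns carry no replicate number. Csf3 pre-mRNA rests on 0 to 21 reads per library, which limits what these libraries can show of it. Of 21 called results of Csf1, Csf2 and Csf3, 12 held without each single library, as did 29 of 58 refitted calls of other named genes. The cause of the changes below was not tested, beyond the fewer samples or other genes tested by construction.

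Without 1 library, the genes called for LPS against untreated were 1860 to 3095 in mRNA (4080 with all libraries) and 3146 to 4834 in pre-mRNA (4902). For continuous IL-10 against LPS they were 43 to 85 (256) and 62 to 1152 (746), and against late IL-10 1 to 8 (124) and 1 to 33 (329). For continuous IL-10 against untreated they were 1209 to 1891 (2946) and 1348 to 2188 (3204), and for late IL-10 against untreated 1916 to 3368 (4120) and 2775 to 4108 (4846). Late IL-10 against LPS gave 29 to 77 in pre-mRNA (116). The difference between the measures gave 44 to 239 for LPS (138), 0 to 4 for continuous IL-10 (7) and 4 to 7 for late IL-10 (15). With no filter on low genes, pre-mRNA calls were 307 for continuous IL-10 against LPS, 26 against late IL-10 and 65 for late IL-10 against LPS. Scaling to total reads gave 3 mRNA calls for late IL-10 against LPS, where there were 0, and 88 and 9 differences between measures for LPS and late IL-10. With voom the continuous IL-10 difference between measures gave 3.

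Without 1 library, the log2 change of Csf1 for continuous IL-10 against LPS ran from -3.55 to -2.29 in mRNA and from -4.45 to -3.34 in pre-mRNA. Against late IL-10 its pre-mRNA ran from -3.62 to -2.33 and against untreated from 2.53 to 3.77. Csf1 mRNA for late IL-10 against LPS ran from -0.77 to 0.52 and so changed sign. Csf2 mRNA for continuous IL-10 ran from -7.13 to -5.98 against LPS, from -5.85 to -4.08 against late IL-10 and from 2.09 to 3.26 against untreated. Csf2 pre-mRNA ran from -5.34 to -3.69 for continuous IL-10 against late IL-10, from -1.14 to 0.83 for continuous IL-10 against untreated and from 3.38 to 5.34 for late IL-10 against untreated. Csf3 pre-mRNA for continuous IL-10 ran from -0.48 to 1.48 against LPS, from -0.21 to 1.75 against late IL-10 and from 2.08 to 4.04 against untreated, and for late IL-10 against LPS from -0.69 to 0.17. Its continuous IL-10 difference between measures ran from -1.92 to 0.04. Among the receptors in mRNA, Csf1r ran from -0.25 to 0.0289 for continuous IL-10 and from -0.14 to 0.14 for late IL-10 against LPS, Csf2ra from -0.87 to 0.35 for continuous IL-10 and from -0.43 to 1.00 for LPS, and Csf3r from -0.0079 to 0.52 for LPS.

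Calls were also lost or gained under other settings, with limma adjusted p in parentheses. For continuous IL-10 against LPS, Csf1 mRNA was -2.92 with a pseudocount of 0.5 (0.051), Csf1 pre-mRNA -3.90 with no filter (0.051) and Csf2 mRNA -6.60 with voom (0.051), all lost. Against late IL-10, Csf1 mRNA was -2.52 when scaled to total reads (0.042, gained), Csf1 pre-mRNA -2.98 with no filter (0.11) and Csf2 mRNA -5.04 with voom (0.13). Csf2 pre-mRNA was -5.53 with voom (0.098), -4.52 with a mean of at least 10 (0.053) or no filter (0.094), -5.12 with a pseudocount of 0.5 (0.062) and -4.12 when scaled to total reads (0.061). For continuous IL-10 against untreated, Csf2 mRNA was 3.54 with voom (0.22) and 1.28 with a pseudocount of 5 (0.18), and Csf2 pre-mRNA turned to 0.25 with voom. The Csf2 difference between measures for continuous IL-10 turned to 0.30 with a pseudocount of 5. Csf3 pre-mRNA became called for continuous IL-10 against untreated at 4.25 with voom (0.044), 3.06 with no filter (0.026), 3.95 with a pseudocount of 0.5 (0.038) and 3.15 when scaled to total reads (0.039). It also became called with no filter for late IL-10 at 2.30 (0.042) and LPS at 2.56 (0.030), and for LPS at 3.43 with a pseudocount of 0.5 (0.045). Scaling to total reads turned the uncalled mRNA values of LPS against untreated to -0.46 for Csf2ra, -0.35 for Csf2rb2 and -0.49 for Csf3r, and the Psmd3 pre-mRNA value, called before, to -0.25 (0.59). Against LPS it turned Csf1r mRNA to 0.15 with continuous IL-10 and -0.0077 with late IL-10, and Csf2ra to 0.006 with continuous IL-10.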
